A study of Mus musculus with 8 samples.

Results

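Serpins are protease inhibitors that expose a flexible reactive centre loop as bait. A protease that cleaves the loop is trapped in a covalent complex with the serpin, so the sequence of the loop largely sets which proteases are inhibited. Clade A serpins are mostly secreted, and the mouse carries an enlarged Serpina3 cluster where the human genome has the antichymotrypsin gene. Clade B serpins lack a classical signal peptide and act mainly inside cells, where they guard the cytosol of leukocytes against their own granule and lysosomal proteases. The genes described here are 8 of these, Serpina3f, Serpina3g, Serpina3n, Serpinb1a, Serpinb2, Serpinb6a, Serpinb8 and Serpinb9. They were found by symbol in a table of 22597 genes, which holds 61 serpins in all, and each symbol had 1 row. The 8 were selected on their CPM in KO 1 to 4 and WT 1 to 4 of these same libraries, over all 8 and within 2 sets of libraries described below. The genotype differences are therefore given as a description, with no p-value, and SEs and counts of calls only describe these libraries.

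The libraries hold polyadenylated RNA of macrophages sorted as interstitial macrophages from the lungs of female C57BL/6 mice. Every recipient was a CD45.1/CD45.2 IMDTR mouse, also named Cx3cr1-DTR in the labels, whose interstitial macrophages can be deleted with diphtheria toxin. Recipients were irradiated with the thorax shielded, which spares resident lung cells, and received CD45.2 bone marrow of Tgfbr2fl/fl donors (WT) or of Lyz2Cre Tgfbr2fl/fl donors (Tgfbr2_KO, written KO for a library). Lyz2Cre is active in the myeloid lineage, deletes the floxed part of the type II TGF-β receptor there, and was carried by the KO donors only, so Cre itself and the deletion it makes cannot be told apart here. After 1 month 50 ng of toxin was injected, and the cells that refilled the niche were taken 10 days later. The labels give an age of 12 to 16 weeks for the samples and of 18 weeks for the recipients at irradiation. There were 4 libraries per genotype, WT 1 to 4 and KO 1 to 4. The labels do not say whether each came from its own mouse, so the spread between them may be technical.

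Gene counts summed to 15597310 (WT 1) to 37654133 (WT 4) per library, so 3 counts amounted to 0.0797 to 0.192 CPM, a count per 1000000 counts of its library. All other CPM are also scaled by TMM, a correction for differences in library makeup. WT 1, WT 2 and KO 1 stood apart from the other 5 libraries in lung transcripts and are called lung-rich. The summed level of 12 epithelial markers was 3216 to 5758 CPM in them and 168 to 259 CPM in the others. For 11 endothelial markers it was 2599 to 5070 against 211 to 283 CPM, and for 10 fibroblast markers 849.7 to 1396 against 109.6 to 147 CPM. KO 1 had the highest of each of these sums, at 5758, 5070 and 1396 CPM. WT 1 had 3692, 3371 and 880 CPM, and WT 2 had 3216, 2599 and 849.7 CPM. The lung-rich libraries were thus not matched for lung transcripts between genotypes. All 12 interstitial macrophage markers were detected, with sums of 8379 to 12144 CPM in the lung-rich libraries and 16411 to 18707 CPM in the others. Tgfbr2, counted over the whole gene and not over its floxed part, was at 474 to 548 CPM in WT and 424 to 576 CPM in KO, which does not check the genotype labels. WT 3 and WT 4 differed by 1.86 times counting noise (median chi-square over genes), the least of any pair within a genotype. Pairs among KO 2 to 4 were also close, at 2.07 to 3.17 times, and WT 1 and WT 2 differed by 4.73 times. In bulk RNA, fewer cells of a type and less RNA per cell cannot be told apart. Values are given over all libraries, among the lung-rich libraries (KO 1 against WT 1 and WT 2) and among the other 5 (KO 2 to 4 against WT 3 and WT 4).

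Serpina3f was higher in every KO library than in every WT library, and by nearly the same factor in both sets. WT 1 to 4 held 10.2, 9.57, 10.8 and 9.90 CPM of it, and KO 1 to 4 held 18.3, 22.3, 21.1 and 18.5 CPM. The WT values lay within a narrow band whatever the lung content of the library, and the KO values formed a second band above it. The mean was 20.04 ± 1.98 CPM in KO against 10.1 ± 0.511 CPM in WT (SD, n = 4 each), a ratio of 1.98. This was 0.99 on the log2 scale (SE 0.09). KO was 1.995 times WT by the means of the 5 other libraries, and 1.85 times by those of the lung-rich ones.

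**Figure D1:**
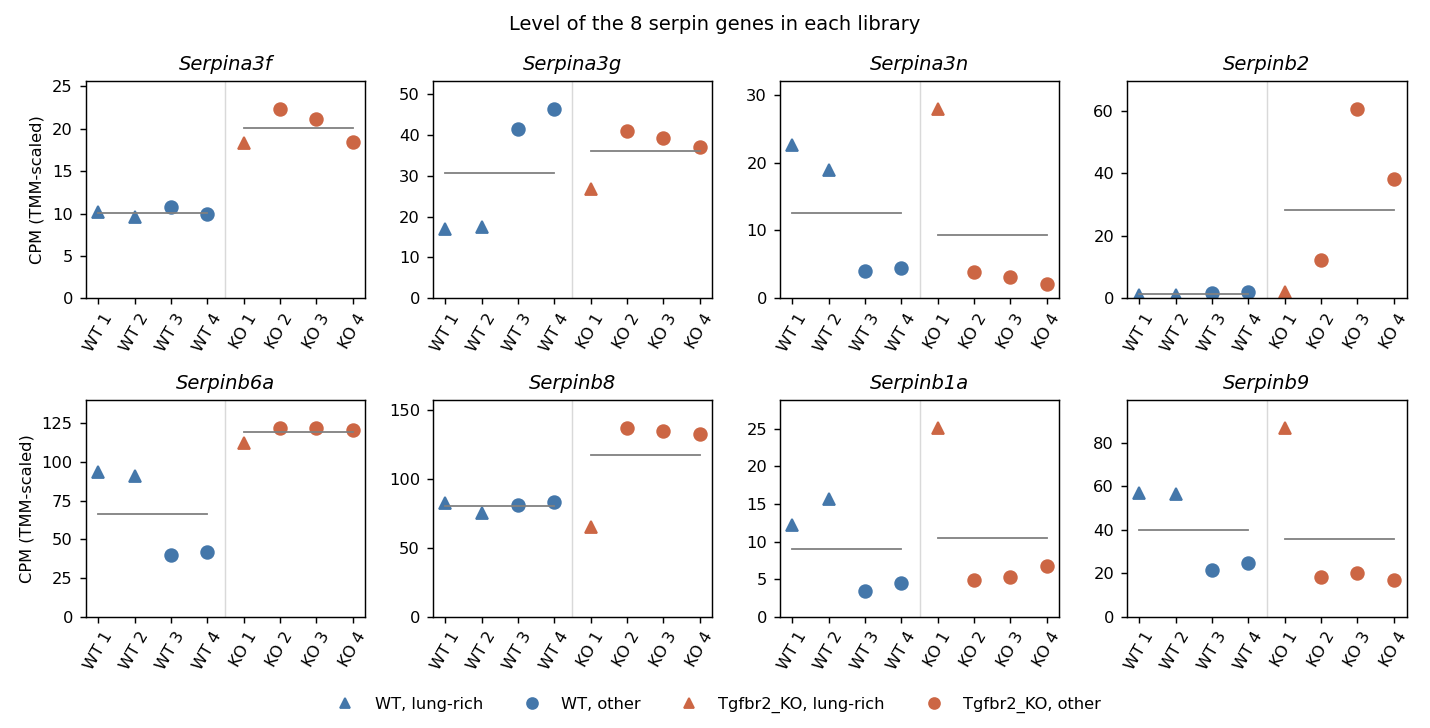
CPM (TMM-scaled, vertical axes from 0) of the 8 serpin genes in each of the 8 libraries, blue for WT and orange for Tgfbr2_KO, triangles for the lung-rich libraries and circles for the others; grey lines are the means of 4 libraries. Serpina3f forms 2 bands by genotype, while Serpina3n, Serpinb1a and Serpinb9 are highest in the lung-rich libraries and Serpinb2 is high in KO 2 to 4.

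Serpina3g, whose product Spi2A is an inhibitor of cysteine cathepsins inside leukocytes, starts 21.7 kb downstream of Serpina3f and did not follow it. In WT 1 to 4 its level came to 17.0, 17.5, 41.5 and 46.2 CPM, compared with 26.8, 41.0, 39.4 and 37.1 CPM in KO 1 to 4. The lung-rich libraries were the low ones in each genotype, and the genotypes overlapped. KO 1 was 1.55 times WT 1 and WT 2, whereas KO 2 to 4 were 0.893 times WT 3 and WT 4, with no overlap in either set. The pooled log2 fold change was 0.24 (SE 0.37). The number of Serpina3f counts per Serpina3g count was 0.601, 0.546, 0.260 and 0.214 in WT 1 to 4 and 0.682, 0.543, 0.536 and 0.499 in KO 1 to 4. The ratio was thus higher in the KO libraries than in the WT libraries of their own set.

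**Figure D2:**
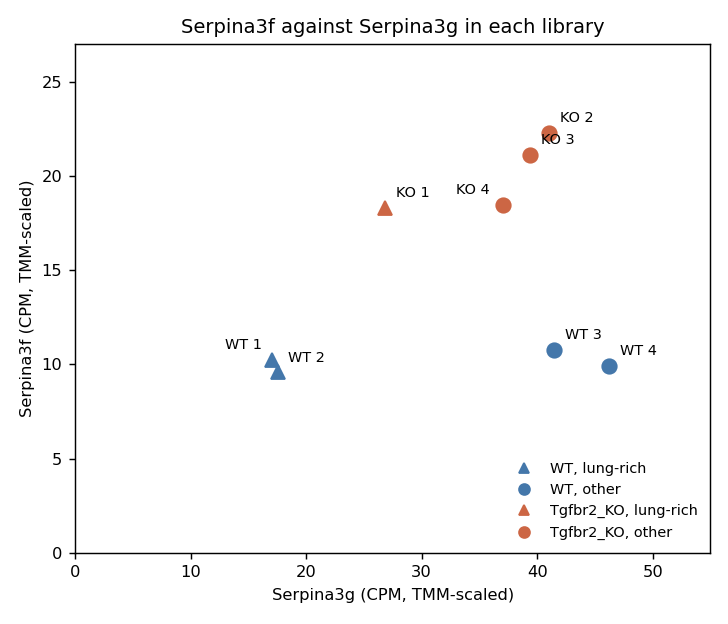
Serpina3f (vertical axis) against Serpina3g (horizontal axis) in CPM, 1 point per library, colours by genotype and shapes by library set. The 4 KO libraries lie between 18.3 and 22.3 CPM of Serpina3f and the 4 WT libraries between 9.57 and 10.8 CPM, while Serpina3g spans 17.0 to 46.2 CPM within WT alone.

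Serpina3n, the mouse serpin nearest in use to human antichymotrypsin, is secreted and inhibits granzyme B among other serine proteases. Its level followed the library set. WT 1 to 4 held 22.5, 19.0, 4.001 and 4.53 CPM of it, and KO 1 to 4 held 27.8, 3.92, 3.16 and 2.14 CPM. All 3 lung-rich libraries lay above all 5 others, by 4.87 times in WT and 9.06 times in KO. Within the sets the genotypes did not overlap but went opposite ways, with KO 1 at 1.34 times WT 1 and WT 2, and KO 2 to 4 at 0.721 times WT 3 and WT 4. The pooled log2 fold change of -0.43 had an SE of 0.99, and without KO 1 it was -2.02. Epithelial, endothelial and fibroblast transcripts were highest in the same 3 libraries, and among these in KO 1. Their part in the level of Serpina3n was not tested.

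These 3 genes lie on the plus strand of chromosome 12 in GRCm38, Serpina3f (ENSMUSG00000066363) at chr12:104214544-104221129, Serpina3g (ENSMUSG00000041481) at chr12:104236245-104241939 and Serpina3n (ENSMUSG00000021091) at chr12:104406729-104414329. They are close copies, which bears on how reads are shared between them. Over the longest open reading frames of their GENCODE M21 transcripts, Serpina3f and Serpina3g were identical at 90.2% of 1170 aligned bases, and Serpina3f and Serpina3n at 84.6% of 1302. The stretches that encode the reactive centre loop are shown because the loop is what distinguishes these inhibitors, each with 84 bases of the transcript strand and with the conserved hinge at the start of the loop in capitals.
Serpina3f: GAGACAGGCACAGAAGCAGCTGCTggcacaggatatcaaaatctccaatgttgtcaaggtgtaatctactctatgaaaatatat
Serpina3g: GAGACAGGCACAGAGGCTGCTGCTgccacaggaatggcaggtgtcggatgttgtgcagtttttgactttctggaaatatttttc
Serpina3n: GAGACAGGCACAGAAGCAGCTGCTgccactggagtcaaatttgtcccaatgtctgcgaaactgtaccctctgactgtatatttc
Compared position by position, Serpina3f and Serpina3g were identical at 60.7% of these bases, Serpina3f and Serpina3n at 53.6%, and Serpina3g and Serpina3n at 65.5%. Of the distinct 31-base words in the coding transcripts of Serpina3f, 27.3% also occurred in transcripts of another gene, 15.3% in those of Serpina3g. The shares were 28.8% for Serpina3g and 21.6% for Serpina3n. The estimated counts of Serpina3f departed from whole numbers by over 0.01 in 6 of 8 libraries, those of Serpina3g in 3 and those of Serpina3n in 1. Which genes shared those reads was not tested, and the single values are uncertain to that extent. Counts summed over the 10 Serpina3 genes of the table, of which these 3 held 97.1%, had a log2 fold change of 0.27 (SE 0.11).

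Promoters of the 3 genes are shown because neighbouring copies with similar upstream sequence differed in how they followed genotype. The stretches come from the RefSeq promoter table (GRCm38.p6, plus strand) and surround a block they share; capitals mark the 9-base STAT motif TTCNNNGAA where it occurs.
Serpina3f, chr12:104214382-104214481: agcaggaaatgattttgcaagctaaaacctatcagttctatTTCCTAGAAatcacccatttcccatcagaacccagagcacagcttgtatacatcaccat
Serpina3g, chr12:104236073-104236146: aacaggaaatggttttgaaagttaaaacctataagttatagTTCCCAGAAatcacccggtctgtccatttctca
Serpina3n, chr12:104406544-104406643: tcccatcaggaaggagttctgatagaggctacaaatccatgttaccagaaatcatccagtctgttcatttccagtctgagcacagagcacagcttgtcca
The motif was present in Serpina3f and Serpina3g, at -121 and -33 from the RefSeq start of each, and these letters did not occur in the window of Serpina3n. It occurred on either strand (it reads the same on both) in 8.30% of 32851 mouse promoter windows of 300 bases, 250 before and 50 after a start. The glucocorticoid receptor motif ACANNNTGT, found in 6.85% of windows, occurred in Serpina3f and Serpina3n. The Smad motif CAGACA was in a second window of Serpina3f, from another start, and in 21.04% of all windows. The PU.1 word GAGGAAGT, the interferon-stimulated response element and the NF-kB motif, searched on both strands, did not occur in the windows of these 3 genes. The RefSeq start of Serpina3g lies upstream of the GENCODE start given above. A match is a description of the letters and not a measured binding site.

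The other Serpina genes of this cluster were at or near 0. Of the 23 Serpina genes on chromosome 12, Serpina3c reached 1.51 CPM in WT and 1.20 CPM in KO on average and did not pass the filter on low counts, and Serpina3m, Serpina3i and the antitrypsin genes lay below it. Expression in the cluster was thus held almost entirely by Serpina3f, Serpina3g and Serpina3n.

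**Figure D3:**
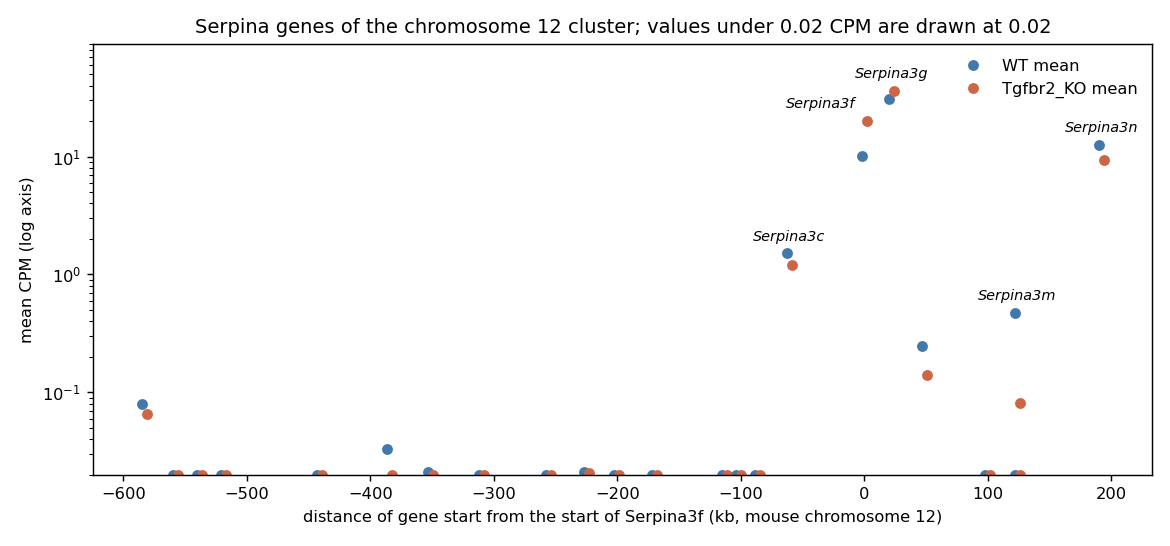
Mean CPM (log axis, 4 libraries per genotype) of the 23 Serpina genes of mouse chromosome 12 by the distance of each gene start from the start of Serpina3f in kb; values under 0.02 CPM are drawn at 0.02. Serpina3f, Serpina3g and Serpina3n lie above 9 CPM, and Serpina3c comes next at 1.51 CPM in WT.

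Among the intracellular serpins of the 8, Serpinb2 had the largest ratio between the genotypes, though not the largest difference in CPM. It encodes plasminogen activator inhibitor type 2, an inhibitor of urokinase that activated macrophages make in large amounts. In WT 1 to 4 its level came to 1.18, 0.922, 1.74 and 1.94 CPM, compared with 1.98, 12.1, 60.5 and 38.2 CPM in KO 1 to 4. KO 2, KO 3 and KO 4 were far above every WT library, whereas KO 1 was barely above WT 4. The values rest on 20, 21, 34 and 69 counts in WT 1 to 4 and on 60, 291, 1187 and 695 counts in KO 1 to 4. KO 2 to 4 themselves differed widely: they had a mean of 36.95 ± 24.2 CPM (SD, n = 3), while the same libraries had 122 ± 0.560 CPM of Serpinb6a. Its pooled log2 fold change was 4.27 (SE 0.99). By means, KO 2 to 4 held 20.1 times WT 3 and WT 4, but KO 1 only 1.88 times WT 1 and WT 2.

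Serpinb6a, which inhibits cathepsin G, was also higher in every KO library than in every WT library. WT 1 to 4 held 93.8, 90.9, 40.1 and 42.0 CPM of it, and KO 1 to 4 held 112, 122, 122 and 121 CPM. The KO libraries were nearly level across both sets, and the WT libraries were not: the lung-rich WT libraries held 2.25 times the level of WT 3 and WT 4. KO thus stood at 2.96 times WT in the 5 other libraries, against 1.22 times in the lung-rich ones. The pooled log2 fold change was 0.84 (SE 0.31).

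Serpinb8, an inhibitor of the proprotein convertase furin, had level WT values and a split among the KO libraries. In WT 1 to 4 its level came to 82.7, 75.1, 80.9 and 82.9 CPM, compared with 65.3, 137, 134 and 132 CPM in KO 1 to 4. KO 2 to 4 lay above all WT libraries and KO 1 below all of them. KO 2 to 4 averaged 1.64 times WT 3 and WT 4, and KO 1 was 0.827 times WT 1 and WT 2, so the direction differed between the sets. The pooled log2 fold change was 0.54 (SE 0.23). Serpinb2 and Serpinb8 are neighbours on the plus strand of chromosome 1, at chr1:107511423-107535478 and chr1:107590006-107610484, with 78.6 kb between their starts.

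Serpinb1a and Serpinb9 resembled Serpina3n in that the lung-rich libraries of each genotype were highest. Serpinb1a, an inhibitor of the neutrophil proteases elastase, cathepsin G and proteinase 3, measured 12.2, 15.7, 3.49 and 4.44 CPM across WT 1 to 4, compared with 25.1, 4.92, 5.35 and 6.71 CPM across KO 1 to 4. KO was above WT within each set, by 1.80 times in the lung-rich libraries and 1.43 times in the others. Over all libraries the genotypes overlapped, with a log2 fold change of 0.24 (SE 0.72) that fell to -0.66 without KO 1. Serpinb9, the inhibitor by which cells that release granzyme B or meet it protect themselves, measured 57.1, 56.3, 21.5 and 24.9 CPM across WT 1 to 4, compared with 86.8, 18.3, 20.3 and 16.9 CPM across KO 1 to 4. Its genotypes went opposite ways in the sets, 1.53 times in the lung-rich libraries and 0.798 times in the others. The pooled log2 fold change was -0.16 (SE 0.65), and -1.11 without KO 1. KO 1 also had the highest epithelial, endothelial and fibroblast sums of the lung-rich libraries, and their part in these ratios was not tested.

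Markers of leukocytes that are rich in these inhibitors did not all share this pattern. Of 12 lymphocyte markers 11 were higher in each lung-rich library than in each other library, with sums of 39.3 to 68.5 against 13.7 to 17.997 CPM. The sum of 7 markers of mast cells, basophils and eosinophils was almost all Kit, at 75.1 to 140.2 CPM in the lung-rich libraries against 7.14 to 17.3 CPM in the others, and the other 6 markers together reached at most 1.42 CPM in any library. Of 11 neutrophil markers 0 were higher in each lung-rich library, and Csf3r held much of their sum. Without it the sum was 37.9 to 51.6 CPM in the lung-rich libraries, 79.2 to 80.6 CPM in WT 3 and WT 4 and 39.7 to 42.0 CPM in KO 2 to 4. No marker of these lists was at 0 in every library. Whether such cells contributed to Serpinb1a, Serpinb9 or Serpina3n was not tested. Several marker sums also differed without overlap between WT 3 and WT 4 on the one hand and KO 2 to 4 on the other. The alveolar macrophage sum was 513 and 524 against 143 to 170 CPM, of which the chitinase-like gene Chil3 alone made 347 to 348 against 15.8 to 17.6 CPM, and the other 12 markers 164.6 to 177 against 127 to 152 CPM. Neutrophil markers summed to 215 and 221 against 146 to 159 CPM and dendritic cell markers to 50.0 and 50.5 against 89.1 to 91.3 CPM. Platelet and erythroid markers summed to 189 and 197 against 511 to 540 CPM, mostly the platelet factor Pf4, at 134 to 139 against 466 to 483 CPM. Epithelial markers summed to 258 and 259 against 168 to 223 CPM, and endothelial markers to 280 and 283 against 211 to 242 CPM. For interstitial macrophage markers the sums were 16411 and 16695 against 18096 to 18707 CPM. Monocyte markers summed to 1060 and 1071 against 958 to 979 CPM. Ccr2 held most of this sum, at 802 to 808 against 539 to 685 CPM. The other 6 monocyte markers together went the other way, at 258 to 263 against 273 to 440 CPM. Mast cell, basophil and eosinophil markers were at 16.5 and 17.5 against 7.19 to 7.86 CPM. Fibroblast and lymphocyte sums overlapped. The differences without overlap move with genotype in the 5 libraries, and their part in the serpin values was not tested.

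Serpinb1a (chr13:32842092-32851185, minus strand), Serpinb9 (chr13:33003250-33017957, plus strand) and Serpinb6a (chr13:33917918-34002794, minus strand) lie in a Clade B cluster on chromosome 13 that holds further copies. Serpinb6a shared 5.31% of its 31-base words with other genes, Serpinb9 4.91%, Serpinb1a 10.96%, Serpinb8 0.305% and Serpinb2 0. The identifier of Serpinb1a is ENSMUSG00000044734, of Serpinb9 ENSMUSG00000045827, of Serpinb6a ENSMUSG00000060147, of Serpinb2 ENSMUSG00000062345 and of Serpinb8 ENSMUSG00000026315. In the promoter windows, the STAT motif occurred in Serpinb2, at 11 from the first of its RefSeq starts, and at -77 and 21 in Serpinb6a. The interferon-stimulated response element, found in 3.44% of windows, occurred in Serpinb6a and Serpinb9, and ACANNNTGT in Serpinb8. Serpinb1a had no entry. Of the summed Serpinb6 counts 83.8% were Serpinb6a. The copy Serpinb6b reached 29.8 CPM in WT 1, 30.7 CPM in WT 2 and 56.2 CPM in KO 1, but 2.25 to 3.30 CPM in the 5 others, so the 2 copies were not spread over the libraries alike.

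In the 5 other libraries 5 of the 8 were higher in KO without overlap of CPM and 3 lower without overlap. Of the 12750 genes tested, 29% and 30.2% did the same. In the lung-rich set KO 1 was above WT 1 and WT 2 for 7 genes and below them for Serpinb8. With 1 library against 2 such separation is common, and 46.4% of genes tested were above and 32.8% below. Serpina3f, Serpinb1a, Serpinb2 and Serpinb6a were higher without overlap in both sets (14.8% of genes tested), 0 were lower in both (13.6%), and the other 4 went opposite ways. Over all 8 libraries 3 genes did not overlap, Serpina3f, Serpinb2 and Serpinb6a, all higher in KO (4.19%). All 8 passed the filter on low counts, and the median of their log2 fold changes was 0.39, against -0.01 over all genes tested.

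In the edgeR fit across all genes, at an adjusted p under 0.05, 1 of the 8 was called, Serpina3f, higher in KO, where 0.298% of genes were called, 0.196% higher and 0.102% lower. With the library set as a term, that is with the lung-rich set estimated beside genotype, 4 were called, the same 4 that were higher in both sets, and all of them higher, against 16.5% of genes, 8.59% higher and 7.89% lower. When WT 3 and WT 4 were counted as 1 library and KO 4 dropped, the same design still called Serpina3f and not Serpinb1a, Serpinb2 or Serpinb6a. In the 5 other libraries alone 6 were called, 4 higher and 2 lower, against 38.5% of genes, 19.7% higher and 18.7% lower. The contrast is the one the genes were proposed from, so these counts describe the genes and support nothing.

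**Figure D4:**
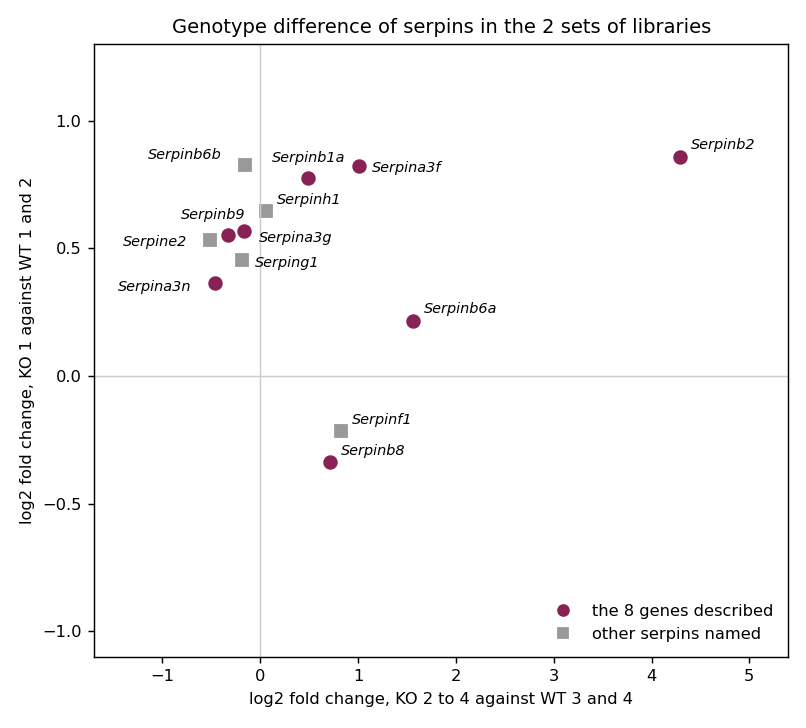
Log2 fold change of KO 1 against WT 1 and WT 2 (vertical axis) and of KO 2 to 4 against WT 3 and WT 4 (horizontal axis) for the 8 genes (purple circles) and 5 other serpins named in the text (grey squares). Of the 8, Serpina3f, Serpinb1a, Serpinb2 and Serpinb6a lie above 0 on both axes.

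The other 53 serpins of the table were taken by symbol alone and tested in the same fit. Of these 23 had 0 counts in every library, 9 passed the filter and 0 of the 9 passed the test (edgeR; 2 had an unadjusted p under 0.05, and DESeq2 called 1). Their median log2 fold change was -0.17, against the -0.01 over all genes, and 0.12 with the set held, against 0.03. Once the set was held, 1 of the 9 was called, lower in KO, where 7.89% of all genes tested were. With WT 3 and WT 4 also merged and KO 4 dropped, 0 of 11 tested were called (edgeR, where 1 had an unadjusted p under 0.05). Serpinf1, which encodes pigment epithelium-derived factor, differed by a log2 value of 0.59 (edgeR adjusted p = 0.316). It was at 0.83 among KO 2 to 4, WT 3 and WT 4, and at -0.22 among the lung-rich libraries.

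Other serpins above 10 CPM in a genotype followed the library set. Serpinh1, the collagen chaperone Hsp47, reached 83.0 CPM in WT 1, 88.9 CPM in WT 2 and 141 CPM in KO 1, and 7.71 to 10.7 CPM elsewhere. Serping1, the C1 inhibitor of complement, was at 99.4, 83.6 and 131 CPM against 10.7 to 15.02 CPM. Serpine2, or protease nexin 1, was at 26.6, 25.8 and 39.6 CPM against 2.71 to 4.56 CPM. In all, 6 of the 9 were higher in each lung-rich library than in each of the others, as were 3 of the 8 genes described here and 28.1% of all genes tested.

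Compared per length (CPM per kb of the longest coding GENCODE M21 transcript), Serpinb6a was the most abundant of the 8 in WT at 40.3, with a range of 24.2 to 56.7. Serpinb8 at 17.5, Serpina3g at 17.0 and Serpinb9 at 11.5 followed, and then Serpina3n at 6.06, Serpinb1a at 4.67 and Serpina3f at 4.50. Serpinb2 was last at 0.725. Serpinb6a was separated from Serpinb8, and Serpina3f from Serpinb2, whereas every other pair of neighbours in this order overlapped between libraries. In KO, Serpinb6a was at 72.1, Serpinb8 at 25.6 and Serpina3g at 20.003, and Serpinb2 stood at 14.1 with a range of 0.994 to 30.3. Serpina3f was at 8.91 in KO, with a range of 8.13 to 9.91.

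The proteases that serpins meet were counted from 7 lists of their targets, neutrophil serine proteases, granzymes, mast cell proteases, plasminogen activation, cysteine cathepsins with legumain, caspases and proprotein convertases. Of 33 genes 22 were tested, and 0 passed with genotype alone (edgeR; 3 had an unadjusted p under 0.05, and DESeq2 called 3 higher), and their log2 fold changes had a median of -0.06. With the library set as a term 3 were higher, among them Casp4 and Pcsk7, and 6 lower. With WT 3 and WT 4 merged into 1 library and KO 4 dropped, 1 of these 9 calls was kept, that of Ctss (edgeR adjusted p = 0.0468), and those of Plaur, Casp4 and Pcsk7 were lost (edgeR adjusted p = 0.168, 0.292 and 0.199). The cathepsin genes gave 5 of the 6 lower ones, among them Ctss, whose product processes the invariant chain. Its log2 fold change was -0.84 by genotype alone (edgeR adjusted p = 0.57), and adding the set made it -1.05 (edgeR adjusted p = 0.00102). The sixth was Plaur, the urokinase receptor (-0.51, and -0.65 once the set is held, edgeR adjusted p = 0.021). Casp4, the receptor for cytosolic lipopolysaccharide, had 0.78 and, with the set held, 0.63 (edgeR adjusted p = 0.192 and 0.0313), but 0.014 within the lung-rich libraries. Urokinase itself, Plau, was at 188 CPM in KO and 171 CPM in WT (edgeR adjusted p = 1.00), and furin, Furin, at 473 and 420 CPM (edgeR adjusted p = 1.00). Granzyme B, Gzmb, was at 1.29 and 1.39 CPM, and the neutrophil protease Prtn3 at 0.694 and 0.326 CPM.

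Genes that respond to signals known to induce serpins were counted from 4 further lists, glucocorticoid, STAT3, interferon-γ and NF-kB responsive genes. All 45 were tested and 0 passed with genotype alone (edgeR; 9 had an unadjusted p under 0.05, and DESeq2 called 3 higher and 1 lower), and their log2 fold changes had a median of 0.10. With the library set as a term 8 were higher and 4 lower, and 1 of these 12 calls was kept with WT 3 and WT 4 merged and KO 4 dropped, that of the transcription factor gene Cebpd (edgeR adjusted p = 0.0494), named after its values were seen. Those of Mt2, Sgk1, Gbp7 and Cxcl9 were lost (edgeR adjusted p = 0.313, 0.119, 0.0893 and 0.0962). For the metallothionein Mt2 the log2 fold change was 1.76 by genotype alone (edgeR adjusted p = 0.148), and adding the set made it 1.54 (edgeR adjusted p = 0.0409). It came to 2.24 among the 5 other libraries but 0.030 among the lung-rich ones. Sgk1, a kinase induced by glucocorticoids, had -0.92 and, with the set held, -0.97 (edgeR adjusted p = 0.222 and 0.0121). The interferon-induced GTPase Gbp7 had 0.53 and 0.55 (edgeR adjusted p = 0.176 and 0.0177), and the chemokine Cxcl9 -0.79 and -0.99 (edgeR adjusted p = 0.881 and 0.00857). The lists thus held genes called in both directions.

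Genes that neighbour the 8 were tested where their start lay within 500000 bases. On chromosome 12 there were 19, 16 of them serpins, and 2 passed the filter, and on chromosome 1 there were 6, all serpins, of which 0 passed the filter. On chromosome 13 there were 22, 12 of them serpins, and 10 passed the filter. With genotype alone 0 of these 12 tested neighbours passed (edgeR), while 3, all on chromosome 13, had an unadjusted p under 0.05 and DESeq2 called 2. With the set held, 3 of the 12 were called, all on chromosome 13 and all higher, where 8.59% of all genes tested were. They are named after their values were seen: Nqo2, Ripk1 and Slc22a23 (log2 fold changes 0.32, 0.43 and 0.66, edgeR adjusted p = 0.0125, 0.0177 and 0.0145). All 3 calls were lost with WT 3 and WT 4 merged and KO 4 dropped (edgeR adjusted p = 0.152, 0.256 and 0.117).

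The genes most like each member were found by Pearson's r of log2 CPM over the 8 libraries, among 8695 genes with a mean of at least 10 CPM. The libraries fall into 2 sets, so a high r can come from the set alone. The value over the 5 other libraries is therefore given second. These 5 were among the 8 used to pick the genes, and they split by genotype. A high second value can thus come from genotype alone and is no separate check. Serpina3f was most like Mdm1 (0.98 and 0.98), Lyz1 (0.98 and 0.98) and Cep85 (0.97 and 0.98). Serpinb2 was most like F5, which encodes coagulation factor V (0.996 and 0.998), Jund (0.99 and 0.98) and Prg4 (0.99 and 0.99). Serpinb6a was most like Pmp22 (0.997 and 0.999), St3gal6 (0.99 and 0.998) and Ephx1 (0.99 and 0.999), and Serpinb8 most like Birc3 (0.998 and 0.998), Ccdc50 (0.995 and 0.99) and H3f3b (0.99 and 0.996). Serpina3g was most like Gtpbp2 (0.99 and 0.73), Stard3 (0.99 and 0.97) and Fpr2 (0.98 and 0.71). Serpina3n was most like Col4a3 (0.997 and 0.95), a basement membrane collagen chain, Ptk7 and Zfp212. Among those most like Serpinb1a were Pttg1 (0.99 and 0.96) and Dcaf1, and Serpinb9 was most like Atp11a (0.998 and 0.94), Bcr and Fasn.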

How the data were processed

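The deposited table holds estimated counts for each gene, made by the authors with salmon as the file name says. Of a library's values 81.8% to 84.8% were whole. The submitters' processing notes name GRCm38 and DESeq2 1.40.1. Salmon's version, its strand setting and its annotation were not given in the sources used here. RNA was prepared with a stranded mRNA kit, per the labels.

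After rounding, counts were tested in R 4.3.3 (edgeR 4.0.16 with limma 3.58.1, and DESeq2 1.42.0 as an alternative). The filterByExpr filter (10 counts, total of 15) kept 12750 genes, and TMM gave the scaling. Genotypes were compared by the robust edgeR quasi-likelihood test with group only, Benjamini-Hochberg adjustment over all genes tested and a threshold of 0.05. SEs are the log2 fold change over the square root of F. Fits with the library set as a term assume the same genotype effect in both sets. Positions and transcripts are from GENCODE M21 (GRCm38) and promoters from RefSeq; 7 of the 8 genes had a promoter window. Open reading frames were the longest stretch between stop codons.

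The 8 genes, the lists, the library sets and the alternatives were chosen with earlier results of these data known. Named genes are the 8, other serpins called or above 10 CPM, up to 4 genes per list with the smallest p, and the 3 genes most like each member; a few of these are left out here, and Furin, Plau, Gzmb and Prtn3 are among the 4 of their lists. Replicate noise used genes with a mean of at least 50 counts. The fit was tested on simulated data with known genotype changes, a single dispersion and no library sets. That test therefore does not cover the difference between the sets seen here.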

Additional observations from a re-analysis of the deposited data

Results flagged for a closer look

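Among the 8 genes, 5 of 16 groups of 4 libraries held a library far from the other 3, where chance gives about 1 in 20 independent groups. These groups share the same 8 libraries, and the share over all genes was not counted. The number is therefore no result about these genes. Across all genes with enough counts, KO 1 differed from KO 2 to 4 by 54.8 to 64.1 times counting noise (median chi-square). All 5 were KO 1 within the KO group. It was high for Serpina3n (27.8 CPM), Serpinb1a (25.1 CPM) and Serpinb9 (86.8 CPM), and low for Serpinb6a (112 CPM) and Serpinb8 (65.3 CPM). The 3 other KO libraries are all outside the lung-rich set.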

How the results depend on the processing

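Serpina3f, Serpinb2 and Serpinb6a kept a positive log2 fold change under every alternative run. Leaving out 1 library at a time gave 0.92 to 1.03 for Serpina3f, 0.04 to 0.51 for Serpina3g, -2.02 to 0.020 for Serpina3n, -0.66 to 0.65 for Serpinb1a, 3.58 to 4.65 for Serpinb2, 0.66 to 1.05 for Serpinb6a, 0.46 to 0.74 for Serpinb8 and -1.11 to 0.058 for Serpinb9. Serpinb1a was at -0.056, -0.013 and -0.66 without WT 3, WT 4 and KO 1, Serpina3n at 0.020 without WT 1, and Serpinb9 at 0.058, 0.047, 0.016 and 0.031 without WT 1, WT 2, KO 2 and KO 4.

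In the lung-rich libraries alone the values were 0.82 for Serpina3f, 0.36 for Serpina3n, 0.86 for Serpinb2, 0.22 for Serpinb6a, -0.34 for Serpinb8 and 0.55 for Serpinb9. In the 5 others Serpina3g was at -0.17 and Serpinb6a at 1.56. Serpinb9 was at 0.044 with the set term. After the counts of WT 3 and WT 4 were added up and KO 4 was dropped, that fit gave 0.14 for Serpinb9 and 0.076 for Serpina3n. Summed over the Serpina3 genes, the value that stands in for Serpina3f and Serpina3n was 0.27. The causes were not tested.

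Of all genes, 38 were called. There were 81 with library totals alone, 527 with DESeq2, 2101 with the set term, 4856 in the 5 other libraries, and 185 with the set term on the added counts. Leaving out 1 library gave 0 to 860 (860 without KO 1, 0 without any other, with 807 to 1451 genes at an unadjusted p under 0.05). Of the 9 other serpins 0 were called, and 1 with DESeq2 or the set term, 3 in the 5 other libraries and 0 to 2 on leaving out 1 library. With the replicate number as a block, 0 genes were called (edgeR; 1479 had an unadjusted p under 0.05) and Serpina3f was at 0.98. Same-numbered libraries deviated together for numbers 1, 3 and 4 (r across genes 0.89, 0.78 and 0.82) but not for 2 (-0.84). Same-numbered libraries belong to the same set for 1, 3 and 4 and to different sets for 2. These values follow the sets and cannot decide whether the numbers pair the libraries. With at most 69 counts of Serpinb2 in a WT library, depth limits its ratio.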
